A study of Mus musculus with 4 samples.

Results

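The D cyclins, CDK inhibitors and Myc genes, 10 genes that set the pace of the cell cycle in G1 phase, were followed across mouse molar tooth mesenchyme. They are the D cyclins Ccnd1, Ccnd2 and Ccnd3, their kinases Cdk4 and Cdk6, the CDK inhibitors Cdkn1a, Cdkn1b and Cdkn2c, and the transcription factor genes Myc and Mycn. They were chosen by name, and all 10 were among the 22072 gene symbols of the deposited tables. The mutant was Bmp4f/f;Wnt1Cre, in which Bmp4 is deleted by a Cre recombinase driven in the neural crest, the source of the tooth mesenchyme. The control was Bmp4f/+, with 1 floxed allele and no Cre named in its label, so the Cre transgene and the loss of Bmp4 cannot be told apart. All embryos were on a mixed background at embryonic day 13.5, and the mesenchyme of upper and lower molars was cut out of frozen sections by laser capture. This gave 4 libraries (mutant upper, mutant lower, control upper and control lower molar), each a pool, with 3 pairs of control and mutant samples pooled per the series' design text.

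D cyclins are made in response to growth signals and bind Cdk4 or Cdk6. The active kinases phosphorylate the retinoblastoma protein, which frees E2F factors to switch on the genes of DNA replication. The INK4 inhibitors, such as the product of Cdkn2c, bind Cdk4 and Cdk6 directly, while the CIP/KIP inhibitors, such as the products of Cdkn1a and Cdkn1b, act on cyclin-bound CDKs. Myc and its relative N-myc, the product of Mycn, bind DNA with Max and raise genes of growth and of the cell cycle. Tooth mesenchyme at this stage condenses around the budding epithelium, and Bmp4 is one of its main signals.

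Values are FPKM (fragments scaled to transcript length and to the mapped total of the library) and can be compared between genes. Between 4820000 and 5550000 approximate reads lay on annotated transcripts in each library. Bmp4 itself was at 4.75 FPKM in the mutant upper and 4.90 FPKM in the mutant lower molar, against 24.8 FPKM in the control upper and 27.2 FPKM in the control lower molar, a difference of -2.21 ± 0.11 (log2, SE; limma adjusted p = 0.0008). All 11 listed markers of tooth mesenchyme were tested and none was at 0. Their summed level was 936 and 920 FPKM in the mutant libraries and 889 and 875 FPKM in the control libraries. The sum hides differences of single markers. For genotype, 0 of the 11 had a limma adjusted p under 0.05 and 5 had an unadjusted one, against 13.2% of all tested genes. In both molars 5 were higher and 3 lower in the mutant, against 27.2% and 32.4% of all tested genes. With 1 library per genotype and molar, the comparison over both molars was made with limma on log2(FPKM + 1) across 10502 genes, those averaging 1 FPKM or more. Its p-values measure the disagreement between molars and not the spread between embryos or pools. In bulk tissue, fewer cells of a type and less RNA per cell cannot be told apart.

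The 10 genes spanned a wide range of levels, and the order hardly moved between libraries. Cdk4 was highest, with a mean of 98.4 ± 5.35 FPKM (SD over the 4 libraries), and ranked between 183 and 204 of all genes. Ccnd2 followed at 46.5 ± 4.87 FPKM, Ccnd3 at 33.2 ± 4.17 FPKM and Ccnd1 at 15.9 ± 1.70 FPKM. The ranges of these 4 genes did not overlap, though Ccnd2 in its lowest library (39.6 FPKM) came close to Ccnd3 in its highest (39.0 FPKM), both in the mutant lower molar. Cdk6 averaged 10.4 ± 1.01 FPKM and Myc 8.36 ± 1.74 FPKM, with overlapping ranges. Cdkn1b at 4.80 ± 1.01 FPKM and Mycn at 4.74 ± 1.14 FPKM did not differ beyond their spread, and each was the higher of the pair in 2 of the 4 libraries. Cdkn2c averaged 3.26 ± 0.92 FPKM, with a range that overlapped that of Mycn. Cdkn1a was lowest at 0.910 ± 0.18 FPKM, so it missed the minimum mean of 1 FPKM, and 9 of the 10 genes were tested.

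**Figure D1:**
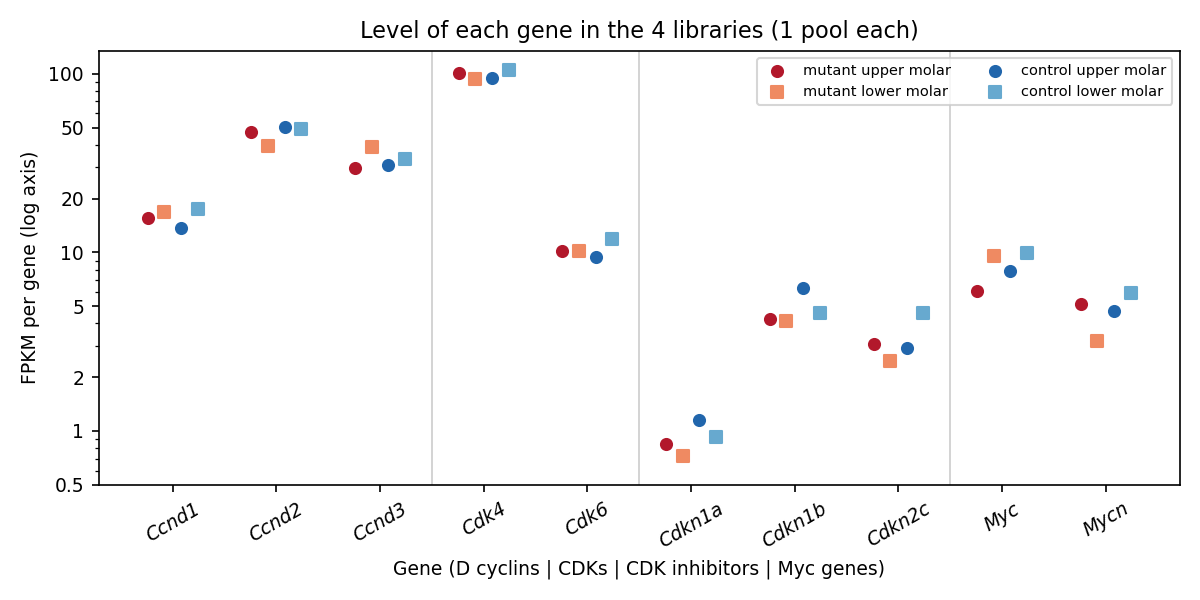
FPKM of each gene (y axis, logarithmic) in the 4 libraries, 1 point per pooled library, with vertical lines between D cyclins, kinases, inhibitors and Myc genes. Cdk4 lies near 100 FPKM and Cdkn1a near 1 FPKM in all 4 libraries, and the mutant lower molar points of Mycn and Cdkn2c are the lowest for those genes.

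No member passed the genotype test. limma called 0 of the 9 tested members for genotype at an adjusted p under 0.05, where it called 0.800% of the 10502 genes. At an unadjusted p under 0.05 there were 0 of the 9 members, against 13.2% of all genes. No member differed 2-fold between mutant and control within a molar. Of all tested genes, 1.01% (upper molar) and 1.10% (lower molar) differed by at least 1 on the log2(FPKM + 1) scale. A low gene can differ 2-fold in FPKM and stay under 1 on that scale, so these shares understate 2-fold differences in FPKM. The median difference of the 9 members was 0.05 (upper molar) and -0.17 (lower molar) on the log2(FPKM + 1) scale, beside 0.02 and -0.05 for all tested genes. Both mutant libraries lay below both control libraries for 2 of the 9 members, Ccnd2 and Cdkn1b, where this held for 23.1% of all genes. Both mutant libraries lay above both controls for 0 of the 9, where 18.4% of all genes did so.

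Among the D cyclins, Ccnd2 differed most between genotypes. Ccnd2 (chromosome 6, 127075727 to 127101066, mm9, 1 RefSeq transcript) was at 47.1 FPKM in the mutant upper and 39.6 FPKM in the mutant lower molar, against 50.7 FPKM in the control upper and 48.8 FPKM in the control lower molar. The genotypes did not overlap, and the gap was wider in the lower molar. The difference over both molars was -0.20 ± 0.11 (log2, SE; 95% interval -0.46 to 0.06; limma adjusted p = 0.49). Between 3217 and 4036 approximate reads stood behind each Ccnd2 value, the most of any of the 10 genes.

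Ccnd1 (chromosome 7, 152115836 to 152125830), the D cyclin best known as a target of growth factor signals, was at 15.6 FPKM in the mutant upper and 16.8 FPKM in the mutant lower molar, against 13.7 FPKM in the control upper and 17.6 FPKM in the control lower molar. The mutant values lay between the control values. Its genotype difference was 0.06 ± 0.11 (log2, SE; 95% interval -0.21 to 0.33; limma adjusted p = 0.87). Ccnd3 (chromosome 17, 47642000 to 47736637) was at 29.7 FPKM in the mutant upper and 39.0 FPKM in the mutant lower molar, against 30.7 FPKM in the control upper and 33.3 FPKM in the control lower molar. The mutant lower molar was the highest and the mutant upper molar the lowest of the 4. Its genotype difference was 0.09 ± 0.11 (log2, SE; 95% interval -0.18 to 0.36; limma adjusted p = 0.79). The 3′ end of Ccnd3 overlaps Bysl, a gene at 2.40 to 3.40 FPKM in the 4 libraries.

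Summed over the 3 D cyclins, the level was 92.4 FPKM in the mutant upper and 95.4 FPKM in the mutant lower molar and 95.001 FPKM in the control upper and 99.7 FPKM in the control lower molar. The make-up of this sum varied more than the sum. Ccnd2 supplied 50.9% and 41.5% of it in the mutant upper and lower molars, against 53.3% and 49.0% in the control upper and lower molars. Ccnd3 supplied 32.2% and 40.9% in the mutant upper and lower molars, against 32.3% and 33.4% in the control upper and lower molars. The mutant lower molar thus held Ccnd2 and Ccnd3 at nearly equal levels, with a Ccnd3 to Ccnd2 ratio of 0.986, where the ratio lay between 0.606 and 0.681 in the other libraries. These shares have 1 library per group and no test.

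**Figure D2:**
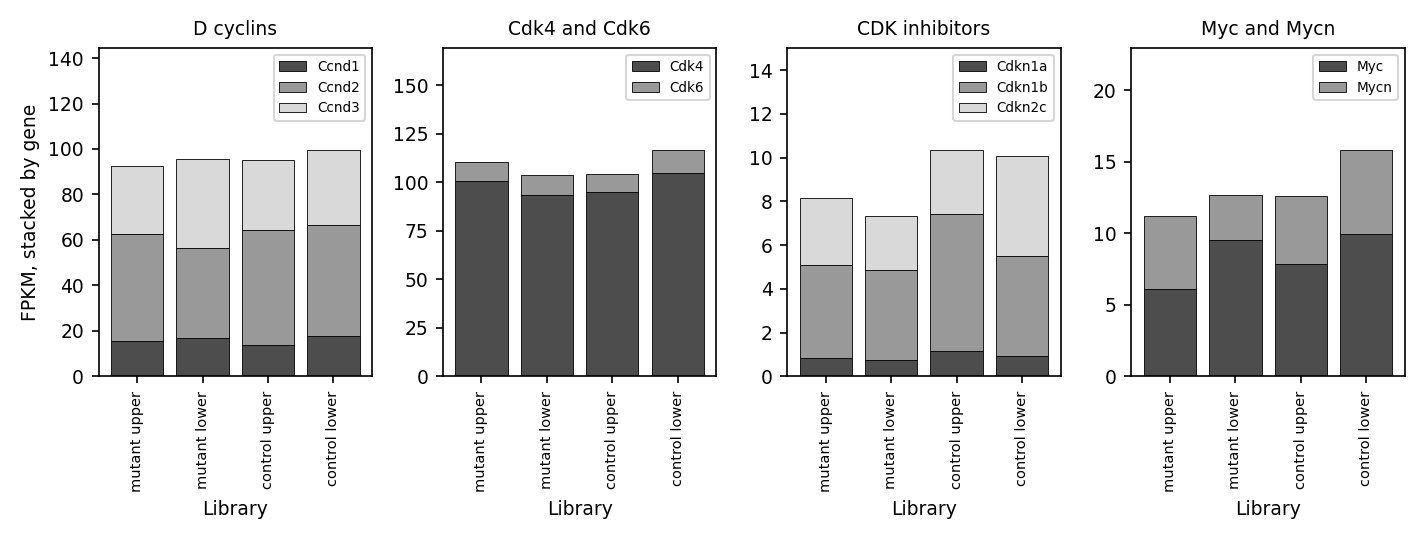
FPKM stacked by gene (y axes from 0, a scale for each panel) for D cyclins, kinases, inhibitors and Myc genes in the 4 libraries (x axis). The D cyclin stack stays between 92.4 and 99.7 FPKM, the inhibitor stack is lower in both mutant libraries, and the Mycn part is smallest in the mutant lower molar.

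The kinases varied little. Cdk4 (chromosome 10, 126500659 to 126504338) was at 100.4 FPKM in the mutant upper and 93.3 FPKM in the mutant lower molar, against 94.8 FPKM in the control upper and 104.9 FPKM in the control lower molar. Its coefficient of variation over the 4 libraries was 5.44%, at the 11.5 percentile of all tested genes. The genotype difference was -0.04 ± 0.11 (log2, SE; 95% interval -0.30 to 0.22; limma adjusted p = 0.91). Cdk6 (chromosome 5, 3344312 to 3522225) was at 10.1 FPKM in the mutant upper and 10.2 FPKM in the mutant lower molar, against 9.45 FPKM in the control upper and 11.8 FPKM in the control lower molar. The mutant values again lay between the control values, and the difference was -0.05 ± 0.12 (log2, SE; 95% interval -0.34 to 0.23; limma adjusted p = 0.89). Cdk4 stood at 9.93 and 9.14 times the level of Cdk6 in the mutant upper and lower molars, and at 10.03 and 8.88 times in the control upper and lower molars. D cyclin FPKM over kinase FPKM was 0.836 and 0.922 in the mutant upper and lower molars, against 0.911 and 0.854 in the control upper and lower molars.

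Cdk4 is known as a target of Myc, which binds the E-box CACGTG, and the upstream sequence of Cdk4 is shown for the E-boxes it holds. Promoter sequences (RefSeq, GRCm38.p6) were matched for 7 of the 10 genes, as windows of 250 bases before and 50 after a gene's start. The first base of each Cdk4 E-box lies at -172, -118, -98 and -11 from the start, and the E-boxes are in capitals in the 250 bases of chr10:127063285-127063534 (plus strand).
Cdk4 upstream: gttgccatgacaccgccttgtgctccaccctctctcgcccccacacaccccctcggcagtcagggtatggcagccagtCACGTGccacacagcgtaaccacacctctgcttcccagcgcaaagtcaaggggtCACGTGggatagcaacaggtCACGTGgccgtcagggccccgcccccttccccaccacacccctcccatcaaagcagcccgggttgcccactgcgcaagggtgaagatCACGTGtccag
An E-box, whose letters read the same on both strands, was found in 7.15% of 32817 promoter windows of this length, and 4 or more E-boxes in 8 of them. Cdk6 had 1 E-box, at -220, and a Cdkn2c window had 1 at position 35 after the start. A match describes the sequence and does not show that Myc bound there.

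Of the inhibitors, Cdkn1b and Cdkn1a were lower in value in both mutant libraries than in both controls. Cdkn1b (chromosome 6, 134870419 to 134875543) encodes p27, the inhibitor that holds cells in quiescence. It was at 4.23 FPKM in the mutant upper and 4.11 FPKM in the mutant lower molar, against 6.28 FPKM in the control upper and 4.56 FPKM in the control lower molar, from 139 to 198 approximate reads. The control upper molar stood apart from the other libraries, which lay close together. The difference over both molars was -0.30 ± 0.13 (log2, SE; 95% interval -0.61 to 0.01; limma adjusted p = 0.39), the strongest test result for genotype among the members (position 1454 of 10502 genes by p). In the upper molar the Cdkn1b difference was -0.48, and 2.92% of all tested genes were as low or lower there. In the lower molar it was -0.12, and 36.6% of genes were as low or lower.

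Cdkn1a (chromosome 17, 29227931 to 29237667), which encodes p21 and is known as a target of p53, was at 0.843 FPKM in the mutant upper and 0.727 FPKM in the mutant lower molar, against 1.15 FPKM in the control upper and 0.920 FPKM in the control lower molar. These values rest on 20 to 29 approximate reads. The genotypes did not overlap, but the gap from the mutant upper to the control lower molar was small. Fitted without a minimum level, over 16973 genes, the difference was -0.19 ± 0.11 (log2, SE; limma adjusted p = 0.65).

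Cdkn2c (chromosome 4, 109333481 to 109337977), which encodes the INK4 inhibitor p18, differed between genotypes in the lower molar and hardly in the upper. It was at 3.05 FPKM in the mutant upper and 2.48 FPKM in the mutant lower molar, against 2.92 FPKM in the control upper and 4.59 FPKM in the control lower molar, from 39 to 66 approximate reads. The control lower molar was the highest and the mutant lower molar the lowest. In the lower molar the mutant stood at 54.0% of the control, a difference of -0.68, and 1.52% of all tested genes were as low or lower. In the upper molar the mutant stood at 104% of the control. Over both molars the difference was -0.32 ± 0.18 (log2, SE; 95% interval -0.75 to 0.12; limma adjusted p = 0.51).

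The 3 inhibitors summed to 8.13 FPKM in the mutant upper and 7.32 FPKM in the mutant lower molar, against 10.4 FPKM in the control upper and 10.1 FPKM in the control lower molar. D cyclin FPKM was 11.4 and 13.0 times this sum in the mutant upper and lower molars, against 9.17 and 9.89 times in the control upper and lower molars. Different genes made up the gap in each molar: Cdkn1b was the main one in the upper molar and Cdkn2c in the lower. This sum leaves out Cdkn1c, which encodes the CDK inhibitor p57 and was far more abundant. Cdkn1c was at 55.6 FPKM in the mutant upper and 89.7 FPKM in the mutant lower molar, against 65.2 FPKM in the control upper and 71.9 FPKM in the control lower molar. Also left out was Cdkn2d, at 9.20 FPKM in the mutant upper and 6.80 FPKM in the mutant lower molar, against 9.16 FPKM in the control upper and 8.60 FPKM in the control lower molar. In the lower molar Cdkn1c was higher in the mutant, so the ratios to this sum describe the 3 summed genes only.

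Myc (chromosome 15, 61816896 to 61821916) was at 6.11 FPKM in the mutant upper and 9.51 FPKM in the mutant lower molar, against 7.89 FPKM in the control upper and 9.92 FPKM in the control lower molar. Within each molar the mutant value was the lower, and the lower molars exceeded the upper molars in both genotypes. The genotype difference was -0.32 (upper molar) and -0.05 (lower molar), and -0.19 ± 0.12 over both (log2, SE; 95% interval -0.47 to 0.09; limma adjusted p = 0.55). After median-ratio rescaling of the libraries, the Myc difference in the lower molar was 0.00.

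Mycn (chromosome 12, 12942899 to 12948642), the family member long studied in embryonic progenitor cells, was at 5.12 FPKM in the mutant upper and 3.20 FPKM in the mutant lower molar, against 4.72 FPKM in the control upper and 5.93 FPKM in the control lower molar. The mutant lower molar was the lowest of the 4 and the control lower molar the highest. These values rest on 117 to 201 approximate reads. In the lower molar the mutant stood at 54.0% of the control, a difference of -0.72, and 1.30% of all tested genes were as low or lower. In the upper molar it stood at 109% of the control. Over both molars the difference was -0.31 ± 0.19 (log2, SE; 95% interval -0.77 to 0.15; limma adjusted p = 0.55). Myc stood at 1.19 and 2.97 times Mycn in the mutant upper and lower molars, against 1.67 times in each control molar.

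Mycn is known to be switched on by E2F factors, and its upstream sequence is shown for the E2F sites in it. Sites were searched as TTTCCCGC, TTTCGCGC, TTTGCCGC and TTTGGCGC on both strands. The Mycn window held 3, at -183 and -168 (TTTGGCGC) and, on the opposite strand and overlapping the site at -183, at -179 (TTTCGCGC). They are in capitals in the 250 bases of chr12:12941837-12942086 (GRCm38.p6, minus strand).
Mycn upstream: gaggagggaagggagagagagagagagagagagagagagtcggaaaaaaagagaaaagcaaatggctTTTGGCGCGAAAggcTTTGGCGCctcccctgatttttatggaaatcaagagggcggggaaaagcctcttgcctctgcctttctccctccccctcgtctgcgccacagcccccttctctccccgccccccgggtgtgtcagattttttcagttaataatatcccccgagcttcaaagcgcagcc
An E2F site was found in 2.26% of the 32817 promoter windows, and 3 or more in 4 of them. Of the 7 genes with a matched window, Mycn was the 1 with such a site, and the Cdkn2c windows held none of these letters, which says nothing of E2F at Cdkn2c. The GC-rich Smad element GGCGCC, the same on both strands, was in 11.9% of windows. It was found in those of Ccnd3, Cdk4, Cdk6, Cdkn1b (2 sites), Cdkn2c and Mycn, where it overlaps the E2F site at -168.

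**Figure D3:**
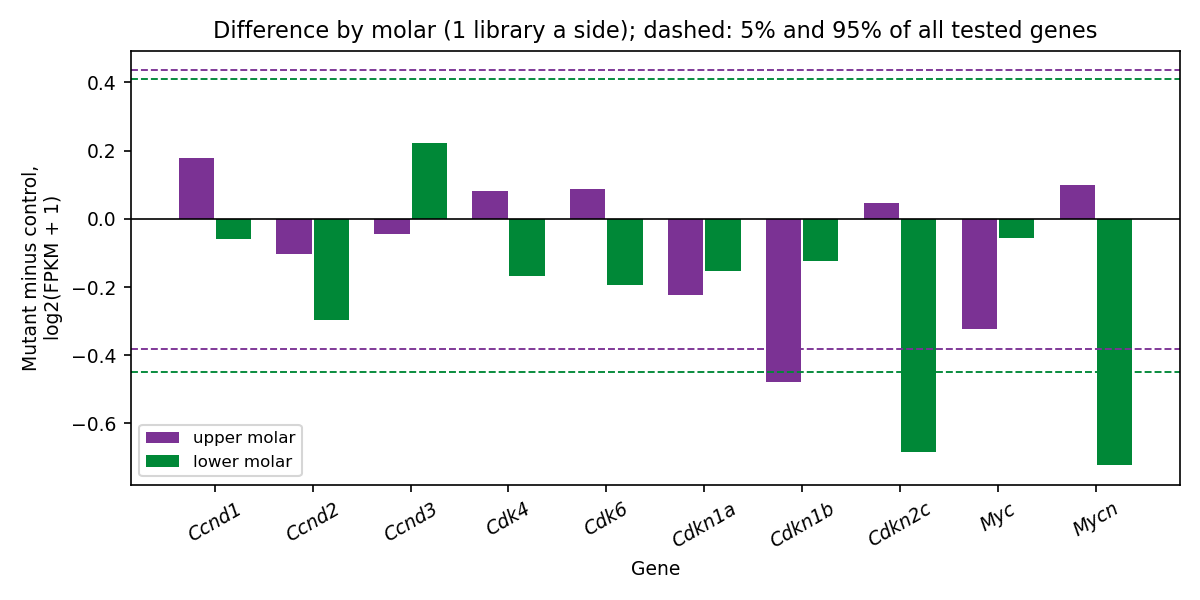
Mutant minus control difference on the log2(FPKM + 1) scale (y axis) for each gene (x axis) in the upper and lower molar, 1 library a side, with dashed lines at the 5% and 95% points of all tested genes. Cdkn1b in the upper molar and Cdkn2c and Mycn in the lower molar lie beyond the lower dashed line, and no gene lies beyond the upper one.

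The difference went in opposite directions in the 2 molars for 6 of the 9 tested members (Ccnd1, Ccnd3, Cdk4, Cdk6, Cdkn2c and Mycn), as it did for 40.2% of all tested genes. For 0 of these 6 was the difference at least 0.1 (log2) in each molar. Mycn was close, at 0.099 in the upper molar. With a pseudocount of 0.1 in place of 1, Mycn stood at 0.12 (upper molar) and -0.87 (lower molar), so this count depends on the pseudocount. The genotype difference in the lower molar minus that in the upper was -0.82 for Mycn and -0.73 for Cdkn2c. Of all tested genes, 1.23% had a value as low as that of Mycn and 1.79% one as low as that of Cdkn2c. With 1 library per group this difference between molars was not tested. In the lower molar 8 of the 9 members were lower in the mutant, the exception being Ccnd3, beside 58.3% of all genes. After median-ratio rescaling 7 of the 9 were, beside 5166 of the 10502 tested genes.

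The profiles of Mycn and Cdkn2c over the 4 libraries spanned the widest range among the members, 0.72 and 0.68 (log2). Among 4965 other genes averaging 5 FPKM or more, the 3 whose centred profile was nearest to that of Mycn were Trip13, Mthfd1 and Haus1, at Euclidean distances of 0.04, 0.06 and 0.09, where the median distance was 0.51. Trip13, an ATPase that acts in the spindle checkpoint, was at 11.2 FPKM in the mutant upper and 7.32 FPKM in the mutant lower molar, against 10.6 FPKM in the control upper and 13.2 FPKM in the control lower molar. The 3 nearest to Cdkn2c were Rad9, Rcc1 and Tpm2, at distances of 0.10, 0.12 and 0.12. These genes were picked as the nearest of 4965, so distances far below the median follow from the choice. Such likeness rests on 4 libraries.

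Between molars, Myc differed most. limma called 0 of the 9 members for molar, where it called 0.724% of all genes, and 1 of the 9 (Myc) had an unadjusted p under 0.05, against 10.2% of all genes. Myc was at 9.51 and 9.92 FPKM in the lower molars of mutant and control and at 6.11 and 7.89 FPKM in their upper molars. The difference, lower minus upper, was 0.43 ± 0.12 (log2, SE; 95% interval 0.15 to 0.71, not adjusted for the number of genes; limma adjusted p = 0.26). Both lower molar libraries lay above both upper ones for 4 of the 9 members (Ccnd1, Ccnd3, Cdk6 and Myc), where this held for 12.2% of all genes. Both lay below for 0 of the 9, where 21.2% of all genes did so. Ccnd3 was higher in the lower molar by 0.25 ± 0.11 and Ccnd1 by 0.22 ± 0.11 (log2, SE; limma adjusted p = 0.54 and 0.59). For the remaining members the molar difference was between -0.21 (Cdkn1b) and 0.15 (Cdk6), with adjusted p from limma of 0.67 or more.

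Myc, Cdkn1a and Ccnd3 each had more than 1 RefSeq transcript, and the deposited estimates shared reads between them unevenly. The Myc transcripts, of 2396 and 2399 bases, span the same locus. The shorter was given 100% of the gene's FPKM in the mutant upper and 34.1% in the mutant lower molar, against 0.00061% in the control upper and 20.4% in the control lower molar. For Cdkn1a the transcript of 1936 bases was given 97.9% of the FPKM in the mutant lower molar and almost none of it in the other 3 libraries, on 20 to 29 approximate reads. For Ccnd3 the transcript of 1979 bases held 97.8% or more in every library. The summed values used here depend little on how reads were shared between transcripts of nearly equal length.

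**Figure D4:**
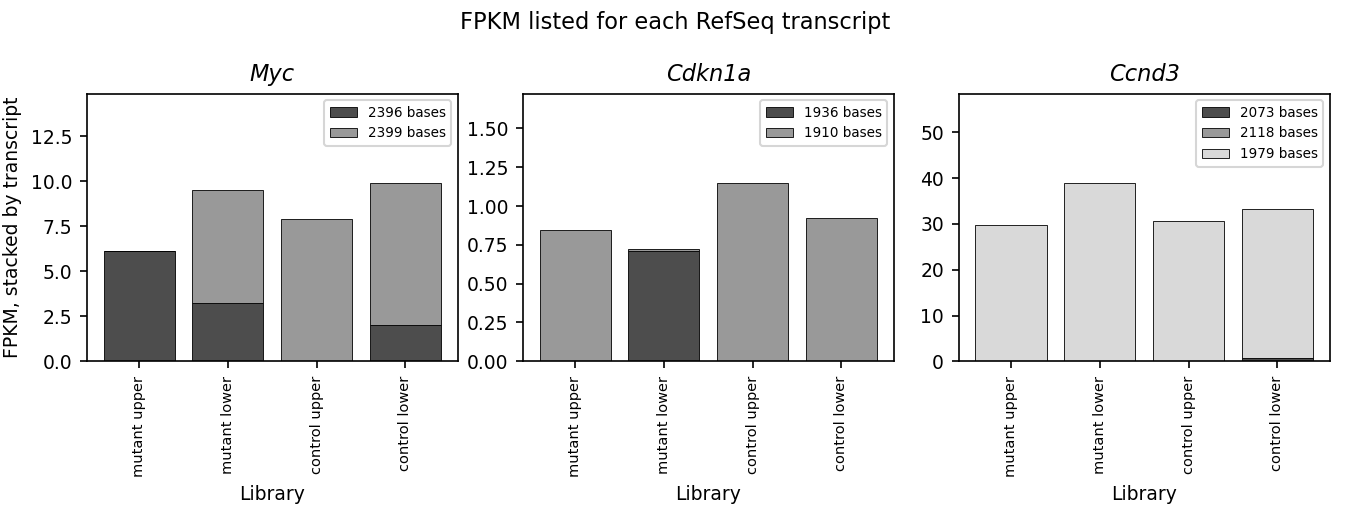
FPKM listed for each RefSeq transcript (y axes from 0, a scale for each panel), stacked and named by length in bases, of Myc, Cdkn1a and Ccnd3 in the 4 libraries (x axis). The Myc and Cdkn1a transcripts trade places between libraries while Ccnd3 is almost all 1 transcript.

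Other genes of these pathways were described by list, each beside all tested genes, whose median difference was 0.02 (upper molar) and -0.05 (lower molar). limma called 0 genes for genotype in any of the 8 pathway lists, against 0.800% of all tested genes. Between 0 and 4 genes of each had an unadjusted limma p under 0.05, against 13.2% of all tested genes. The counts ran from 0 of 11 p53 target genes to 4 of 10 genes in the Myc and Max network. E2F target genes of S phase had the widest gap between molars. All 20 were lower in value in the mutant lower molar, with a median of -0.33, while 6 of the 20 were lower in the mutant upper molar, with a median of 0.05. The mutant had the lower value in the lower molar for 58.3% of all tested genes, and in the upper molar for 46.8%. After median-ratio rescaling the counts of the list were 20 (lower molar) and 7 (upper molar), beside 5166 and 5284 of the 10502 tested genes. Rrm2, the small subunit of ribonucleotide reductase, was at 15.2 FPKM in the mutant upper and 9.85 FPKM in the mutant lower molar, against 17.1 FPKM in the control upper and 16.5 FPKM in the control lower molar (limma adjusted p = 0.31). Tyms, which makes thymidylate, was at 13.6 FPKM in the mutant upper and 9.84 FPKM in the mutant lower molar, against 12.5 FPKM in the control upper and 15.2 FPKM in the control lower molar. Rrm1, the large reductase subunit, had differences of -0.05 (upper molar) and -0.43 (lower molar).

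Other cyclins and CDKs had medians of -0.12 (upper molar) and -0.27 (lower molar), with 4 of 16 genes at an unadjusted limma p under 0.05, beside 13.2% of all tested genes. Cdc25b, a phosphatase that activates CDKs, was at 3.16 FPKM in the mutant upper and 2.20 FPKM in the mutant lower molar, against 4.30 FPKM in the control upper and 4.18 FPKM in the control lower molar (limma adjusted p = 0.19). Ccnb1, a cyclin of mitosis, was at 20.2 FPKM in the mutant upper and 15.8 FPKM in the mutant lower molar, against 24.6 FPKM in the control upper and 23.1 FPKM in the control lower molar, and its partner Cdk1 had differences of -0.10 and -0.50. Of the 5 other genes named as CDK inhibitors, 3 were tested. Cdkn3 had differences of -0.23 and -0.33 and Cdkn2d of 0.01 and -0.30 in the upper and lower molar, while Cdkn2a and Cdkn2b were listed at 0 in all 4 libraries. In the Rb and E2F family the medians were -0.02 and -0.15 over 18 genes. E2f8, a repressor of the family, had differences of -0.26 and -0.42, Tfdp2, an E2F partner, of -0.23 and -0.40, and E2f5 of -0.29 and -0.33 (limma adjusted p = 0.28, 0.34 and 0.36).

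In the Myc and Max network, 10 of 11 genes were tested, with medians of -0.06 (upper molar) and -0.21 (lower molar). The third Myc gene, L-myc (Mycl1), had the largest difference of the list. It was at 2.34 FPKM in the mutant upper and 2.08 FPKM in the mutant lower molar, against 3.74 FPKM in the control upper and 5.12 FPKM in the control lower molar. Its genotypes did not overlap, and the difference was -0.75 ± 0.15 (log2, SE; limma adjusted p = 0.11). Mxd3, a Max partner that represses, had differences of -0.42 and -0.28, and Mlxip, a glucose-sensing relative, of -0.33 and -0.31. The shared partner Max was at 27.8 FPKM in the mutant upper and 30.2 FPKM in the mutant lower molar, against 29.2 FPKM in the control upper and 31.8 FPKM in the control lower molar. The 23 Myc target genes had medians of 0.01 (upper molar) and -0.23 (lower molar). In the lower molar 21 of the 23 were lower in value in the mutant, beside 58.3% of all tested genes. After median-ratio rescaling 19 were, beside 5166 of the 10502 tested genes. Among the Myc target genes Ppan, a factor of ribosome assembly, had differences of 0.37 and 0.45. Shmt2, a serine-converting enzyme of mitochondria, had differences of -0.29 and -0.34, and Ncl, the nucleolar protein nucleolin, of -0.11 and -0.36.

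Genes for the turnover of cyclin D, p27 and Myc proteins had medians of -0.08 and -0.23 over 8 genes. Fbxw7, the ubiquitin ligase subunit that marks Myc for breakdown, was at 4.15 FPKM in the mutant upper and 2.62 FPKM in the mutant lower molar, against 4.99 FPKM in the control upper and 3.83 FPKM in the control lower molar (limma adjusted p = 0.34). Aurka, a mitotic kinase that stabilises N-myc, had differences of -0.20 and -0.26, and Huwe1, a ubiquitin ligase, of -0.18 and -0.22. The 11 tested p53 target genes, the company of Cdkn1a, had medians of -0.01 and 0.09, with 0 at an unadjusted limma p under 0.05. Bax had differences of 0.66 and 0.08, Sesn2 of 0.35 and 0.22 and Gadd45a of -0.50 and 0.01.

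**Figure D5:**
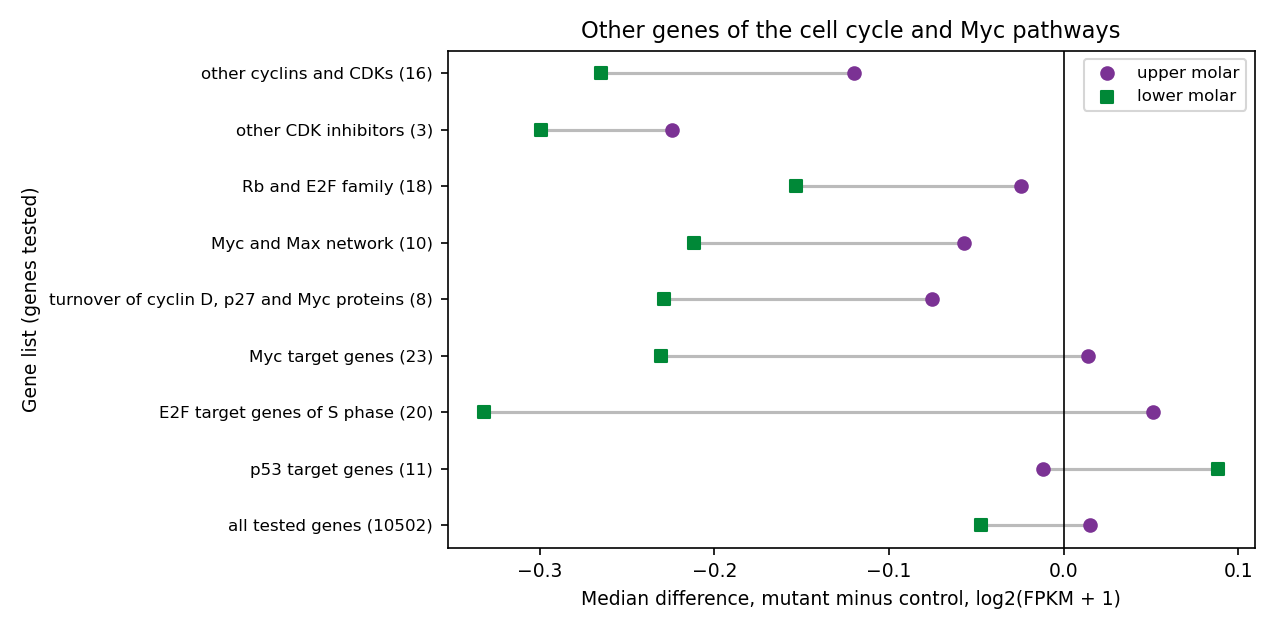
Median difference, mutant minus control, on the log2(FPKM + 1) scale (x axis) of each pathway list (y axis, number of tested genes in brackets) in the upper and lower molar, with all tested genes in the bottom row. The lower molar median lies left of the upper molar median for every list except the p53 target genes, and is furthest left for E2F target genes at -0.33.

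Markers of other cells in the captures were read beside these values. Pericyte and smooth muscle markers summed to 40.7 FPKM in the mutant upper and 37.0 FPKM in the mutant lower molar, against 59.6 FPKM in the control upper and 56.2 FPKM in the control lower molar, with 5 of 8 tested. The pericyte marker Rgs5 was the largest part of this gap (limma adjusted p = 0.011). It was at 9.03 FPKM (upper) and 9.48 FPKM (lower) in the mutant, against 31.8 FPKM (upper) and 25.05 FPKM (lower) in the control. Without Rgs5 the sums were 31.7 FPKM (upper) and 27.5 FPKM (lower) in the mutant, against 27.8 FPKM (upper) and 31.2 FPKM (lower) in the control. These sums hide differences both ways. Of the 5 tested, Rgs5, Notch3 and Cspg4 had lower mutant values in each molar, while Pdgfrb and Acta2 had greater ones. Cspg4 and Acta2 hardly differed in the lower molar. Notch3 was at 6.51 FPKM (upper) and 6.38 FPKM (lower) in the mutant, against 8.70 and 9.03 FPKM in the control. Pdgfrb was at 20.2 and 16.1 FPKM in the mutant, against 14.1 and 15.6 FPKM in the control. Endothelial markers summed to 38.3 FPKM in the mutant upper and 45.1 FPKM in the mutant lower molar, against 52.1 FPKM in the control upper and 48.9 FPKM in the control lower molar, with 10 of 10 tested. Dental epithelium markers, 4 of 10 tested, summed to between 20.8 and 23.6 FPKM. Erythroid markers, 6 of 7 tested, summed to 432 FPKM in the mutant upper and 505 FPKM in the mutant lower molar. In the control they summed to 494 FPKM (upper) and 437 FPKM (lower). Of the 6 tested, 0 were lower in the mutant in the lower molar and 3 in the upper, beside 58.3% and 46.8% of all tested genes. Nerve and glia markers, 1 of 8 tested, summed to 8.49 FPKM in the mutant upper and 6.75 FPKM in the mutant lower molar, against 2.61 FPKM in the control upper and 4.46 FPKM in the control lower molar. The neurofilament gene Nefl made this gap, at 6.89 FPKM (upper) and 4.15 FPKM (lower) in the mutant, against 0.632 FPKM (upper) and 1.52 FPKM (lower) in the control. The remaining markers summed to 1.60 FPKM (upper) and 2.61 FPKM (lower) in the mutant, against 1.98 FPKM (upper) and 2.95 FPKM (lower) in the control. Macrophage and skeletal muscle markers, 1 tested in each list, stayed at or under 3.604 FPKM, with Ckm at 0. The part of these cells in the values of Ccnd2, Cdkn1b, Cdkn2c and Mycn was not tested.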

How the data were processed

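RNA of laser-captured molar mesenchyme was turned into cDNA with an Ovation RNA-Seq kit and into Nextera libraries, per the labels' protocols. The authors aligned reads with TopHat 1.4.1 and Bowtie 0.12.7 to the mm9 build, as listed in the submitters' processing notes. Each deposited table gives FPKM and coverage, a signal of mean read depth, for 28107 RefSeq transcript rows, per the file headers. The quantification tool and version, strand setting and handling of reads with several alignments are not given in the sources used here.

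FPKM was summed per gene symbol. Approximate reads are coverage times length, divided by 44.2 bases per read, estimated from transcripts with 1 read. Amplified reads do not stand for independent molecules, so read numbers can understate even the counting error. Genes averaging 1 FPKM or more were fitted with limma 3.58.1 (R 4.3.3) on log2(FPKM + 1), which understates changes of low genes, with genotype and molar as terms, an intensity trend, two-sided tests and p-values adjusted by Benjamini-Hochberg (threshold 0.05). This left 1 residual degree of freedom, with 5.77 prior degrees from all genes. An exact permutation test of 2 against 2 libraries could not go below p = 0.333. The fit was tested on simulated data.

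Coordinates are mm9, counted from 1. Promoter sequences are from RefSeq on GRCm38.p6, and no coordinates were carried between builds. A protein comparison planned for the D cyclins and Myc genes was not made, since no protein sequences were used here. The 10 members and all gene lists were chosen with earlier results of these data known. Named genes were the 10 members and up to 3 genes per pathway list with the largest genotype effect. Also named were the 3 genes nearest in profile to the 2 members of widest range. Max, Cdkn2a, Cdkn2b, Bysl, Rgs5, Notch3, Cspg4, Pdgfrb, Acta2 and Nefl were named after their values were seen. An item of a marker list is not reported here. Older symbols were matched through RefSeq synonyms. Alternatives covered the pseudocount, the filter, scaling, the intensity trend, the terms, short transcripts, the longest transcript and each library left out. With a library left out, the fit had 1 term only, genotype or molar.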

Additional observations from a re-analysis of the deposited data

How the results depend on the processing

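No paired analysis was possible because each genotype and molar had 1 pooled library. Molar was a term of the main fit. Over 208 member values under the alternatives, limma called 0 members for either term (lowest adjusted p 0.09, Myc between molars at a mean of at least 5 FPKM). With the filter at a mean of at least 5 FPKM, Cdkn1b, Cdkn2c and Mycn (means 4.80, 3.26 and 4.74 FPKM) were not tested. With the longest transcript only, Ccnd3 and Cdkn1a gave no tested value. The number of genes called for genotype, 84, was 0 without a filter on low values, 146 at a mean of at least 5 FPKM, 14 after median-ratio rescaling, 38 without the intensity trend, 133 without transcripts under 0.3 kb, 0 with the longest transcript only, 7 without a term for the molar, and 5 to 22 with 1 library left out. For molar, 76 genes became 0, 127, 46, 139, 1 and 12 under no filter, the higher filter, rescaling, no short transcripts, the longest transcript and no term for genotype, and 2 to 30 with 1 library left out, and 65 without the trend. Where limma called 0, the genes at an unadjusted p under 0.05 were 1398 (genotype, no filter), 992 (genotype, longest transcript) and 1225 (molar, no filter).

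All 11 changes of sign among member values came from the fits with 1 library left out. These fits also dropped the other term, so their values mix genotype with molar. Genotype differences then ran from -0.11 to 0.23 for Ccnd1, -0.10 to 0.28 for Ccnd3, -0.11 to 0.030 for Cdk4, -0.20 to 0.095 for Cdk6 and -0.47 to 0.094 for Myc. Molar differences ran from -0.064 to 0.10 for Cdk4, -0.45 to 0.028 for Cdkn1b, -0.20 to 0.49 for Cdkn2c and -0.49 to 0.23 for Mycn. Without a molar term, the fits with 1 library left out cannot show how much of a genotype difference 1 library carried. The genotype differences of Ccnd2, Cdkn1b, Cdkn2c and Mycn kept their sign, but their size varied with the library left out. They were -0.078 for Ccnd2 and -0.040 for Mycn without the mutant lower molar, -0.11 for Cdkn1b without the control upper molar and -0.063 for Cdkn2c without the control lower molar, and reached -0.32, -0.58, -0.49 and -0.57 without another library. With the longest transcript only, the Myc genotype difference was -1.72, since the upper mutant library has its reads on the shorter transcript. Within the lower molar, Mycn and Cdkn2c stood at -0.67 and -0.64 after rescaling. Depth limits Cdkn1a, at 20 to 29 reads, and Cdkn2c, at 39 to 66, most.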
